A study of Mus musculus with 20 samples.

Results

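Sncg, Mzb1, Igfbp6, Trh, Lgals1, Lgals3, Zcchc12 and Layn are 8 of the 25208 genes in the count table of a study of mouse preimplantation embryos. They were selected on their late 8-cell counts, as genes with few or no transcripts in late 8-cell control embryos and higher levels in late 8-cell embryos that received P300 siRNA, alone or with a rescue. The late 8-cell values therefore chose the genes and are given as a description, with no test. Tests were kept to the 3 earlier stages. The genes were nevertheless chosen with earlier results of these data known, and the filter, scaling and spread were set from all 20 libraries. These tests are thus not fully independent of the choice.

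The study measured RNA by Smart-seq2, a full-length protocol for very small samples, in 20 libraries from embryos cultured from the zygote in KSOM medium. At the late 2-cell, 4-cell and early 8-cell stages there were P300 siRNA embryos, of the genotype P300 knockdown, and control embryos, of wild-type genotype. At the late 8-cell stage there were P300 siRNA with I1394G, P300 siRNA with NaCr, P300 siRNA alone and controls, so that each of the 10 groups held 2 libraries. The labels call the first pair rescues of the knockdown and do not spell them out. I1394G may be read as a p300 point mutant and NaCr as sodium crotonate. What the control embryos received, the number of embryos per library and whether the replicates came from separate matings were not given in the sources used here. Every p-value below therefore measures only the spread between these libraries.

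p300, encoded by Ep300, is a coactivator that acetylates histones at enhancers and promoters and can also attach the longer crotonyl group. The mouse embryo starts its own transcription during the cleavage stages, when maternal RNA is cleared and lineage genes are switched on in turn. The 8 genes are not known as a pathway. Trh encodes the precursor of thyrotropin-releasing hormone and Igfbp6 a secreted protein that binds insulin-like growth factors, with a preference for IGF2. Lgals1 and Lgals3 encode galectins, lectins for beta-galactosides, and Layn encodes layilin, a membrane lectin for hyaluronan. Mzb1 encodes an endoplasmic reticulum (ER) protein that helps plasma cells to assemble antibodies, Sncg the cytosolic protein gamma-synuclein of neurons, and Zcchc12 a zinc-finger coactivator of BMP signalling studied in the nervous system.

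Counts per library summed to between 3202332 (P300 siRNA, late 8-cell, replicate 1) and 24785201 (I1394G, replicate 2). Levels are given as CPM, a gene's count relative to the TMM-scaled size of its library, for replicate 1 and then replicate 2. Ep300 itself ranged from 11.4 to 29.9 CPM in P300 siRNA libraries of the 3 earlier stages and from 41.5 to 88.4 CPM in their controls. It did not part late 8-cell siRNA from control libraries, and NaCr was lowest without overlap, at 14.8 and 16.2 CPM with I1394G, 11.6 and 12.6 CPM with NaCr, 16.2 and 13.2 CPM with siRNA alone and 22.03 and 15.2 CPM in controls. The knockdown is thus visible before the late 8-cell stage, and the late 8-cell siRNA and control groups rest on their labels. The deposited FPKM column of control early 8-cell replicate 2 did not follow that library's counts (r = 0.35 over 8226 genes, after centring each gene). It was closest to the counts of P300 siRNA early 8-cell replicate 2 (r = 0.66), and Ep300 read 2.53 FPKM there against 82.9 CPM in the counts. The other 19 FPKM columns matched their own counts at r = 0.98 or above, and all results below use counts. The early 8-cell results below rest on that control library as the count table gives it. A bulk library cannot tell fewer cells of a type from less RNA per cell.

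All 8 genes passed the low-count filter that kept 16603 genes, and 7 of them also passed it in the 12 libraries of the earlier stages, Sncg being the exception. Sncg stays in the counts out of 8 below, although it entered them only through the late 8-cell libraries. In late 8-cell controls Sncg and Zcchc12 had no counts, Mzb1 had 3 and Layn 2, and Trh and Igfbp6 averaged 0.629 and 0.942 CPM. Lgals1 and Lgals3 were not near 0 there, at 2.86 and 7.24 CPM on average. In all 8 genes both libraries were above both controls with I1394G, with NaCr and with siRNA alone. Over all tested genes the same held for 28.9% with I1394G, 23.8% with NaCr and 32.8% with siRNA alone, and the genes were chosen for it. The name of rescues that keep these genes high applies unevenly, since Zcchc12 and Layn were far lower in both rescues than with siRNA alone.

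**Figure D1:**
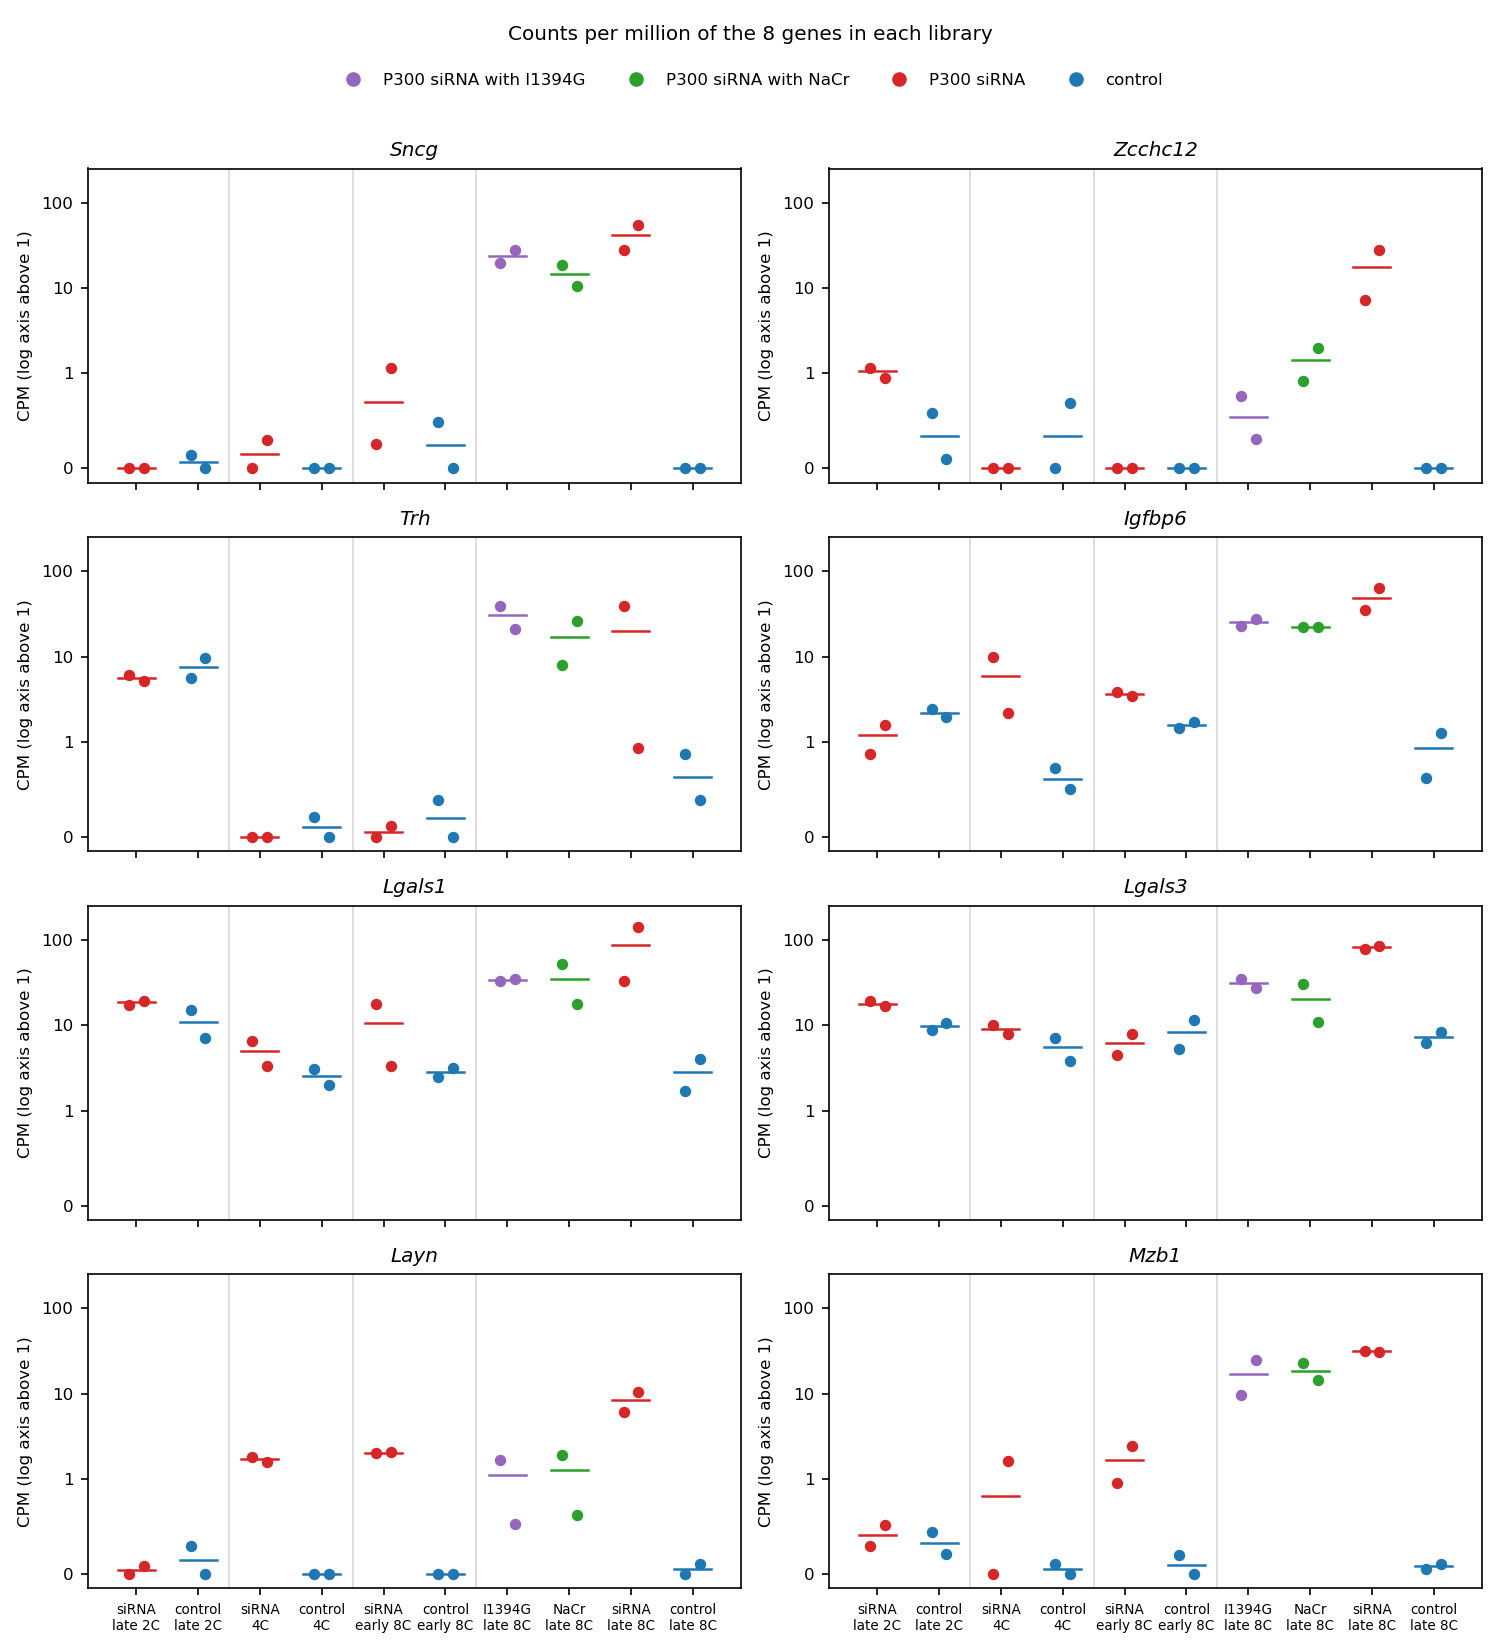
CPM of each gene in the 20 libraries, with groups along the horizontal axis (2C, 4C and 8C stand for the 2-cell, 4-cell and 8-cell stages), 1 point per library and a bar at the mean of 2. The vertical axis is linear below 1 CPM and logarithmic above. All 8 genes have their lowest late 8-cell levels in controls, and Zcchc12 and Layn lie well below the siRNA libraries in both rescues.

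Upstream sequences are shown for 3 genes that stand for the different courses below. Layn was higher with siRNA from the 4-cell stage on, Trh overlapped between rescues and siRNA alone, and Sncg was scarce before the late 8-cell stage. RefSeq's promoter table (GRCm38.p6, whereas the count files were made on mm9) held 6 of the 8 genes, all but Lgals1 and Mzb1. Each line gives the 250 bases before the annotated start, 5′ to 3′ on the gene's strand, with the GC box word GGGCGG or its reverse complement CCGCCC in capitals. They lie at chr9:51077095-51077344 (minus strand) for Layn, chr6:92244651-92244900 (minus strand) for Trh and chr14:34374670-34374919 (minus strand) for Sncg.

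Layn: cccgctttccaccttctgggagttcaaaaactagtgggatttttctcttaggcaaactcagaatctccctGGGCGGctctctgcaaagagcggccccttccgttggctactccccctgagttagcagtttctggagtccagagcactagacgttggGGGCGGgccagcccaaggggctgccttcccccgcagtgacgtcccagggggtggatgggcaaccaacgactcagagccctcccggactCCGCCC

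Trh: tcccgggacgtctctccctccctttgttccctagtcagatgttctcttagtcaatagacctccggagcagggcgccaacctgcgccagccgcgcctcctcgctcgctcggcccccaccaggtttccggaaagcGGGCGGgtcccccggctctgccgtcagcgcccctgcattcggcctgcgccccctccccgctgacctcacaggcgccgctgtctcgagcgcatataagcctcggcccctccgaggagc

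Sncg: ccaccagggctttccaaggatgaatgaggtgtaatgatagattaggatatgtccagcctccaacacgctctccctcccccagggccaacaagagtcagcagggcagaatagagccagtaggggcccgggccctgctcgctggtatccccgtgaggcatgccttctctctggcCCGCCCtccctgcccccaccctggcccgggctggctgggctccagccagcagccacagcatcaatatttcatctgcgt

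In windows of 300 bases around the start, read on both strands, the GC box word occurred in 5 of the 6 promoters, namely 3 times in Layn, 2 times each in Zcchc12 and Lgals3 and once each in Trh and Sncg. It occurs in 35.7% of all 32851 promoters of the table. Igfbp6 held no such word and was the single one of the 6 with TATAAA, which 13.6% of promoters hold. CCAAT occurred in Igfbp6, Lgals3 and Zcchc12 (37.4% of promoters). The E-box word CACGTG was in none of the 6 windows, against 7.15% of promoters. The TEAD word CATTCC was in none, against 14.7%, and the AP-1 word TGACTCA in none, against 5.20%. GC content was 67.0% in Trh and Lgals3, 61.3% in Sncg, 60.7% in Layn, 58.3% in Zcchc12 and 49.7% in Igfbp6, against a median of 52.7%. The RefSeq start of Igfbp6 did not join the transcript model of GENCODE M21, so its window may not be the promoter used, and the other 5 windows joined theirs.

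Trh had counts in every late 2-cell library, was lower at the 4-cell stage in both siRNA and control embryos, and was high again in 5 of the 6 late 8-cell libraries with siRNA. It had 6.13 and 5.13 CPM in late 2-cell siRNA embryos, against 5.59 and 9.50 CPM in their controls (log2 difference -0.42 ± 1.05 SE, edgeR's quasi-likelihood test, adjusted p = 1). The libraries of the siRNA and control groups overlapped. At the 4-cell stage it had no counts in either siRNA library, against 0.207 and 0 CPM in controls, and at the early 8-cell stage 0 and 0.115 CPM with siRNA against 0.394 and 0 CPM in controls. In controls Trh fell between these stages, with 2 counts at the 4-cell stage against 167 at the late 2-cell stage, a counting ratio of 113 (95% interval 30.9 to 945, for counting error only, as in all such intervals here; edgeR adjusted p = 0.00215). In siRNA embryos it was at least 44.2-fold lower at the 4-cell stage than at the late 2-cell stage (adjusted p = 0.00270), a bound set, like those below, at 3 counts over the group.

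At the late 8-cell stage Trh had 39.5 and 21.0 CPM with I1394G, 8.05 and 25.99 CPM with NaCr, 39.3 and 0.939 CPM with siRNA alone, and 0.873 and 0.386 CPM in controls. Both libraries of each rescue were far above the controls, whereas the siRNA libraries split, replicate 2 lying next to the controls with 23 of 20252948 counts, and replicate 1 holding 148 of 3202332. The log2 difference of siRNA from control was 4.91 ± 1.24 with both libraries and 0.56 without siRNA replicate 1. Against siRNA alone, Trh differed by 0.65 ± 1.02 with I1394G and by -0.19 ± 1.02 with NaCr, without siRNA replicate 1 by 5.00 and 4.17, and without siRNA replicate 2 by -0.37 with I1394G. The I1394G mean of Trh was above the siRNA mean only through siRNA replicate 2, since it was 76.9% of replicate 1. The NaCr mean of Trh was 43.3% of siRNA replicate 1.

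Igfbp6 parted siRNA from control embryos first at the 4-cell stage. In late 2-cell embryos it was below the controls without overlap, as 27.5% of all tested genes were, at 0.875 and 1.56 CPM with siRNA against 2.43 and 1.98 CPM in controls (-0.81 ± 0.62, adjusted p = 1). At the 4-cell stage it had 9.76 and 2.19 CPM with siRNA against 0.723 and 0.504 CPM in controls. It was higher in siRNA embryos by 3.27 ± 0.63 (edgeR adjusted p = 0.00272), with replicate 1 well above replicate 2. At the early 8-cell stage the libraries still did not overlap, at 3.83 and 3.44 CPM with siRNA against 1.48 and 1.70 CPM in controls (1.19 ± 0.58, adjusted p = 0.171).

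The change of Igfbp6 between stages also differed. From the late 2-cell to the 4-cell stage it rose by 2.19 ± 0.60 in siRNA embryos (adjusted p = 0.00477) and fell in controls (-1.89 ± 0.64, adjusted p = 0.0164). The siRNA effect was larger at the 4-cell than at the late 2-cell stage by 4.08 ± 0.88 (adjusted p = 0.0168). The 4-cell call held without each library in turn and was lost when its 4 libraries were fitted alone (adjusted p = 0.153). The rise in siRNA embryos was 0.80 without siRNA 4-cell replicate 1 (adjusted p = 0.238). The fall in controls missed the threshold without 4-cell replicate 2 or late 2-cell replicate 1 (adjusted p = 0.119 and 0.0761). The difference between stages stayed between 2.69 and 4.60 but missed it without siRNA 4-cell replicate 1, either late 2-cell siRNA library, control 4-cell replicate 2 or control late 2-cell replicate 1 (adjusted p between 0.0560 and 0.0725).

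Late 8-cell embryos had Igfbp6 at 23.0 and 27.2 CPM with I1394G, 21.98 and 21.9 CPM with NaCr, 35.0 and 62.6 CPM with siRNA alone, and 0.616 and 1.27 CPM in controls. The 4 groups did not overlap, and the siRNA libraries lay farther apart than those of either rescue. The log2 differences from control were 4.73 ± 0.60 with I1394G, 4.53 ± 0.60 with NaCr and 5.70 ± 0.63 with siRNA alone.

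Lgals1 had counts in every library and fell from the late 2-cell to the 4-cell stage. It had 17.4 and 19.4 CPM in late 2-cell siRNA embryos, against 14.8 and 6.996 CPM in controls, and 6.55 and 3.29 CPM against 3.10 and 2.02 CPM at the 4-cell stage. The fall was -1.94 ± 0.74 in siRNA embryos (edgeR adjusted p = 0.0308) and -2.13 ± 0.75 in controls (adjusted p = 0.0206). At the early 8-cell stage it had 17.8 and 3.33 CPM with siRNA against 2.46 and 3.14 CPM in controls, with 1 siRNA library high and the other next to the controls. None of the 3 siRNA differences passed, at 0.74 ± 0.69, 0.93 ± 0.77 and 1.93 ± 0.76 from the late 2-cell to the early 8-cell stage (adjusted p = 1, 0.440 and 0.0887). The early 8-cell difference did pass with DESeq2 (1.92, adjusted p = 0.0426) and with edgeR without the low-count filter (adjusted p = 0.000185). It was 2.66 without siRNA replicate 2. The fall in controls missed the threshold without late 2-cell replicate 1 or 4-cell replicate 2 (adjusted p = 0.170 and 0.118). The fall in siRNA embryos missed it without either late 2-cell library or 4-cell replicate 2 (adjusted p = 0.0638, 0.0917 and 0.190).

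Late 8-cell levels of Lgals1 were 33.0 and 34.6 CPM with I1394G, 51.4 and 17.8 CPM with NaCr, 33.2 and 139 CPM with siRNA alone, and 1.69 and 4.03 CPM in controls. The rescue libraries overlapped those with siRNA alone, since siRNA replicate 1 lay at the level of the rescues. The log2 differences from control were 3.56 ± 0.76, 3.60 ± 0.76 and 4.93 ± 0.80 for I1394G, NaCr and siRNA alone. Without siRNA replicate 2 the differences of I1394G and NaCr from siRNA were 0.04 and 0.08, against -1.37 and -1.33 with both.

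Lgals3, the other galectin, kept a moderate level in every library before the late 8-cell stage. It had 19.0 and 16.8 CPM in late 2-cell siRNA embryos against 8.75 and 10.5 CPM in controls, 9.90 and 7.92 CPM against 7.13 and 3.85 CPM at the 4-cell stage, and 4.44 and 7.92 CPM against 5.22 and 11.5 CPM at the early 8-cell stage. The siRNA libraries were above the controls without overlap at the first pair of stages and overlapped them at the early 8-cell stage. The differences were 0.89 ± 0.46, 0.72 ± 0.47 and -0.45 ± 0.47 and none passed (edgeR adjusted p = 1, 0.321 and 0.562). The early 8-cell difference was 0.23 without control replicate 2. Late 8-cell embryos had Lgals3 at 34.9 and 27.1 CPM with I1394G, 29.8 and 10.9 CPM with NaCr, 78.3 and 84.0 CPM with siRNA alone, and 6.16 and 8.33 CPM in controls. Its siRNA libraries were close, and both rescues lay between them and the controls (2.10 ± 0.46, 1.504 ± 0.46 and 3.49 ± 0.49 log2 above control for I1394G, NaCr and siRNA alone).

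Layn, the hyaluronan receptor gene, separated siRNA from control embryos at both the 4-cell and the early 8-cell stage. In late 2-cell embryos it was near 0, at 0 and 0.0869 CPM with siRNA against 0.294 and 0 CPM in controls. At the 4-cell stage it had 1.81 and 1.58 CPM with siRNA and no counts in controls, 39 counts against 0. At the early 8-cell stage it had 2.001 and 2.07 CPM with siRNA and again no counts in controls, 41 against 0. All 4 siRNA libraries were alike and all 4 controls empty. Layn was at least 17.8-fold higher with siRNA at the 4-cell stage (edgeR adjusted p = 0.00902) and at least 14.4-fold higher at the early 8-cell stage (adjusted p = 0.00845). The 4-cell call missed the threshold without control replicate 2 (adjusted p = 0.0722) and the early 8-cell call without control replicate 2 of that stage (adjusted p = 0.0649).

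The FPKM column that did not follow its counts listed Layn at 0.77 FPKM in that control library, where the counts held 0. With all FPKM columns limma gave adjusted p = 0.221 for the early 8-cell difference of Layn, and adjusted p = 0.0286 with that column left out. Within siRNA embryos Layn rose from the late 2-cell to the 4-cell stage, with 39 counts at the 4-cell against 1 at the late 2-cell stage, a counting ratio of 30.4 (95% interval 5.14 to 1230; edgeR adjusted p = 0.00933, and 0.0665 without late 2-cell siRNA replicate 1). At the late 8-cell stage it had 1.68 and 0.528 CPM with I1394G, 1.91 and 0.622 CPM with NaCr, 6.11 and 10.5 CPM with siRNA alone, and 0 and 0.110 CPM in controls. The siRNA libraries stood above all 4 rescue libraries, which in turn stood above the controls. Against the 2 control counts, the 45 counts with I1394G gave a ratio with an interval of 5.22 to 170.2. The ratio was 27.6 (7.07 to 237) with NaCr and 187 (51.3 to 1552) with siRNA alone.

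Mzb1, the ER cofactor of plasma cells, had 0.292 and 0.521 CPM in late 2-cell siRNA embryos against 0.441 and 0.209 CPM in controls. At the 4-cell stage it had 0 and 1.65 CPM with siRNA against 0.103 and 0 CPM in controls, and at the early 8-cell stage 0.957 and 2.41 CPM against 0.197 and 0 CPM. The 4-cell libraries overlapped, since the signal came from siRNA replicate 2 alone, and the early 8-cell libraries did not. The 4-cell difference passed (27 counts against 1, counting ratio 36.1, interval 5.95 to 1477; edgeR adjusted p = 0.0349). Without siRNA replicate 2 the siRNA group held no counts and the direction turned (adjusted p = 0.784), and the difference was 3.13 without control replicate 2 (adjusted p = 0.262). The early 8-cell difference passed as well (32 counts against 2, ratio 16.9, interval 4.30 to 145; adjusted p = 0.0318), and missed the threshold without control replicate 2 (adjusted p = 0.207) or siRNA replicate 2 (adjusted p = 0.160). Limma on log2 FPKM called Mzb1 at neither stage.

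Late 8-cell levels of Mzb1 were 9.65 and 24.6 CPM with I1394G, 22.6 and 14.4 CPM with NaCr, 31.6 and 30.8 CPM with siRNA alone, and 0.0513 and 0.110 CPM in controls. The siRNA libraries were nearly equal and above all 4 rescue libraries, which overlapped one another. Against the 3 control counts the counting ratios were 222 (75.5 to 1077) with I1394G, 248 (84.4 to 1208) with NaCr and 388 (132 to 1884) with siRNA alone. Of the 50-base stretches in Mzb1's annotated transcripts (GENCODE M21), 71.6% also occur in a transcript model named SPATA24, and the counting is not stated to use strand, so its reads are uncertain. Its listed neighbour Spata24 stood at 0.08 on the log2 scale between late 8-cell siRNA and control embryos. The other 7 genes shared no such stretch with another gene's transcripts. RefSeq lists the gene models Gm42406, Gm30368 and Gm32681 overlapping Zcchc12, Lgals1 and Layn, from which reads could not be told apart.

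Sncg had at most 10 counts in any library before the late 8-cell stage and was plentiful in every late 8-cell library with siRNA. It had no counts with siRNA against 0.147 and 0 CPM in controls at the late 2-cell stage, and 0 and 0.305 CPM with siRNA against no counts in controls at the 4-cell stage. It was at 0.261 and 1.15 CPM with siRNA against 0.492 and 0 CPM in controls at the early 8-cell stage, which overlapped. No test is given for Sncg, since it passed the filter only through the late 8-cell libraries. At the late 8-cell stage it had 19.8 and 28.1 CPM with I1394G, 18.4 and 10.4 CPM with NaCr, 28.1 and 54.7 CPM with siRNA alone, and 0 in both controls, where 3 counts would be 0.154 and 0.165 CPM. The 3 groups with siRNA were ordered without overlap, siRNA alone highest and NaCr lowest. The step between I1394G and siRNA alone was narrow, since I1394G replicate 2 at 28.13 CPM all but met siRNA replicate 1 at 28.14 CPM. It was at least 300.1-fold higher than in controls with I1394G, at least 181-fold with NaCr and at least 519-fold with siRNA alone.

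Zcchc12 was highest with siRNA alone and was near its late 2-cell levels in the rescues. In late 2-cell embryos it had 1.17 and 0.956 CPM with siRNA against 0.588 and 0.104 CPM in controls (1.502 ± 1.17, edgeR adjusted p = 1). At the 4-cell stage it had no counts with siRNA, against 0 and 0.687 CPM in controls, and at the early 8-cell stage no counts in any of the 4 libraries. Within siRNA embryos it was at least 8.34-fold lower at the 4-cell than at the late 2-cell stage (adjusted p = 0.0119, and 0.0875 without 4-cell replicate 2). At the late 8-cell stage it had 0.766 and 0.308 CPM with I1394G, 0.924 and 1.99 CPM with NaCr, 7.17 and 27.8 CPM with siRNA alone, and 0 in both controls. Every rescue library was below both siRNA libraries, and the siRNA replicates themselves lay several-fold apart. Zcchc12 was at least 6.73-fold higher than in controls with I1394G, at least 18.3-fold with NaCr and at least 219-fold with siRNA alone.

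Counted over the stages, 0 of the 8 genes were called at the late 2-cell stage with edgeR, against 0.00602% of all tested genes called higher. None of the 8 had an unadjusted p under 0.05 there, the lowest being 0.0674 for Lgals3, and DESeq2 called 0 as well. Lgals1, Lgals3 and Zcchc12 were above control without overlap, against 19.7% of all genes, and 0.00% of all genes were called lower. At the 4-cell stage Igfbp6, Layn and Mzb1 were higher with siRNA, 3 of 8 against 7.77% of all tested genes, and Igfbp6, Lgals1, Lgals3 and Layn did not overlap with control, against 23.3%. At the early 8-cell stage Layn and Mzb1 were higher, 2 of 8 against 8.21%, and Igfbp6, Lgals1, Layn and Mzb1 did not overlap, against 26.9%. Of all genes 7.25% and 8.30% were called lower at these stages, and of the 8 none was, with edgeR or DESeq2, although Zcchc12 had an unadjusted p of 0.0278 at the 4-cell stage. Averaged over the 3 stages, Igfbp6 (1.22 ± 0.35, adjusted p = 0.0196), Layn (adjusted p = 0.0222) and Mzb1 (2.95 ± 0.75, adjusted p = 0.00932) were higher, 3 of 8 against 11.3% of all genes called higher and 10.4% called lower. Sncg and Zcchc12 had groups with no counts, and their means over stages could not be estimated. Layn had no control counts at the 4-cell and early 8-cell stages, and Trh none with siRNA at the 4-cell stage. The means of Layn and Trh have no log2 value either, so the call of Layn carries a direction and no size. Without late 2-cell siRNA replicate 2 Igfbp6 and Mzb1 missed the threshold (adjusted p = 0.106 and 0.0704), and the mean of Layn could not be estimated, since the late 2-cell siRNA group then held no counts. Igfbp6 missed it also without siRNA 4-cell replicate 1 or control 4-cell replicate 2 (adjusted p = 0.0754 and 0.0564), and the mean of Mzb1 could not be estimated without siRNA 4-cell replicate 2, where the group then held no counts. The siRNA effect grew between the late 2-cell and 4-cell stages in 1 gene, Igfbp6, against 2.37% of all genes, with 1.90% called smaller. Between the 4-cell and early 8-cell stages it was called for none of the 8 with edgeR or DESeq2, against 0.00% of all genes, with 1 of the 8 and 1265 of all genes at an unadjusted p under 0.05. Differences between the 8 genes in when they were raised were not tested.

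**Figure D2:**
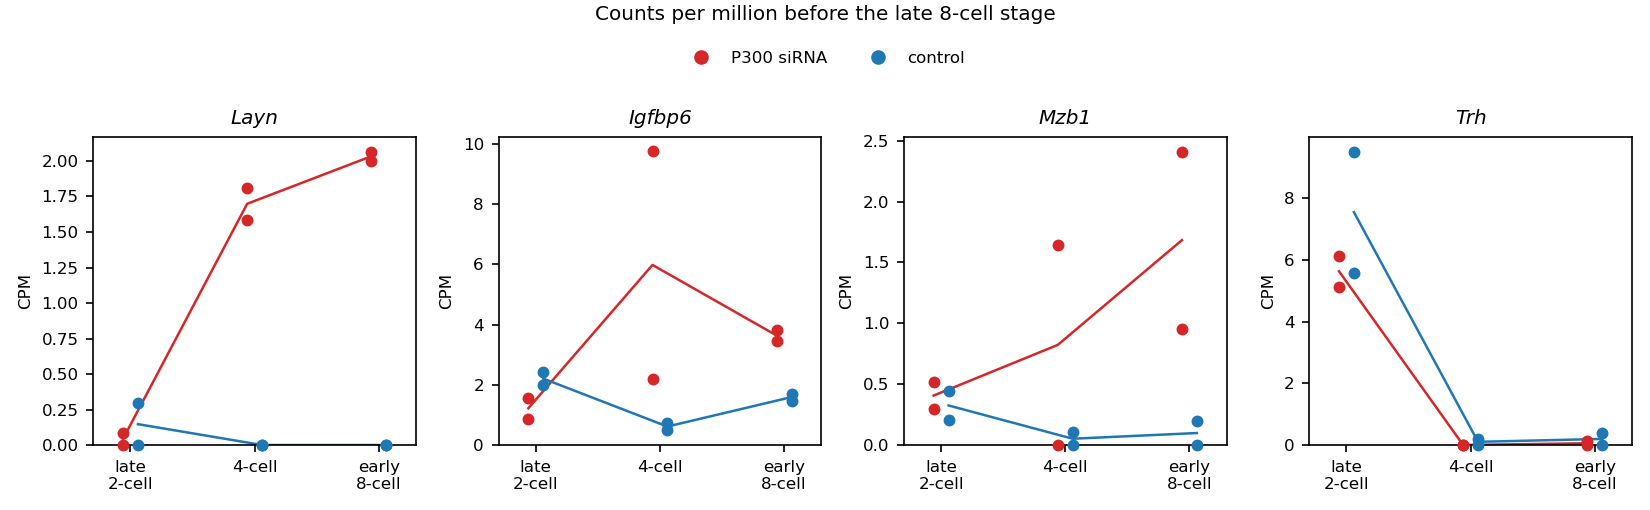
CPM of Layn, Igfbp6, Mzb1 and Trh at the 3 stages before the late 8-cell stage (horizontal axis), with a linear vertical axis that differs between panels, 1 point per library and lines through the means of 2. Layn is at 0 in all 4 control libraries of the 4-cell and early 8-cell stages, the 4-cell mean of Mzb1 rests on 1 siRNA library, and Trh falls in both siRNA and control embryos.

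Through the stages themselves, Trh, Igfbp6 and Lgals1 were lower at the 4-cell than at the late 2-cell stage in controls, 3 of 8 against 34.2% of all tested genes called lower and 27.0% called higher. In siRNA embryos Trh, Lgals1 and Zcchc12 were lower, 3 of 8 against 31.5%, and Igfbp6 and Layn were higher, 2 of 8 against 27.0%. These shares are near those of all genes. From the 4-cell to the early 8-cell stage edgeR called none of the 8 in siRNA embryos, against 0.271% of all genes higher and 0.223% lower, or in controls, against 0.620% and 0.506%. DESeq2 called 0 too. In siRNA embryos 0 of the 8 had an unadjusted edgeR p under 0.05, against 690 of the 16603 tested genes. In controls Zcchc12 and Igfbp6 did, against 2171 of all tested genes. Sncg is left out of the latter, since it passed the filter only through the late 8-cell libraries.

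The order of levels over the 10 groups had siRNA alone at the late 8-cell stage on top for 7 of the 8 genes, and I1394G on top for Trh. For Sncg the order below it was I1394G and then NaCr, each step without overlap, followed by early 8-cell siRNA embryos at 0.704 CPM on average. For Layn the next places belonged to early 8-cell and 4-cell siRNA embryos, at 2.03 and 1.70 CPM on average, above NaCr at 1.27 and I1394G at 1.11 CPM. For Zcchc12 late 2-cell siRNA embryos, at 1.06 CPM, ranked between NaCr at 1.46 and I1394G at 0.537 CPM. For Lgals1 and Lgals3 the late 2-cell siRNA embryos, at 18.4 and 17.9 CPM, came directly after the rescues. Layn in 4-cell siRNA embryos and Zcchc12 in late 2-cell siRNA embryos overlapped the libraries with NaCr.

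As a share of the siRNA mean at the late 8-cell stage, the rescues differed from gene to gene. Trh held 150.3% with I1394G and 84.6% with NaCr, but 76.9% and 43.3% without siRNA replicate 2, and 3218% and 1812% without siRNA replicate 1. Sncg, Igfbp6, Lgals1, Lgals3 and Mzb1 held between 38.2% and 57.8% with I1394G and between 25.1% and 59.4% with NaCr. Layn held 13.3% and 15.2%, and Zcchc12 held 3.07% and 8.33%. Without siRNA replicate 2 the shares of Lgals1 were 102% and 104%, those of Layn 18.1% and 20.8% and those of Zcchc12 7.49% and 20.3%. Without siRNA replicate 1 those of Lgals1 were 24.3% and 24.8% and those of Zcchc12 1.93% and 5.24%. Both libraries of a rescue were below both siRNA libraries in 6 of the 8 genes with I1394G, against 29.0% of all tested genes, and in 6 of the 8 with NaCr, against 31.7%. The exceptions in both were Trh and Lgals1. Between the rescues, I1394G was above NaCr without overlap in Sncg and Igfbp6 (0.73 ± 0.67 and 0.19 ± 0.50 on the log2 scale), and below it in Zcchc12 (-1.40 ± 1.06). Over all tested genes, I1394G was above NaCr without overlap in 20.4% and below in 16.3%. The comparisons of the rescues with siRNA and of siRNA with control share the siRNA libraries, and those with control share the controls.

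**Figure D3:**
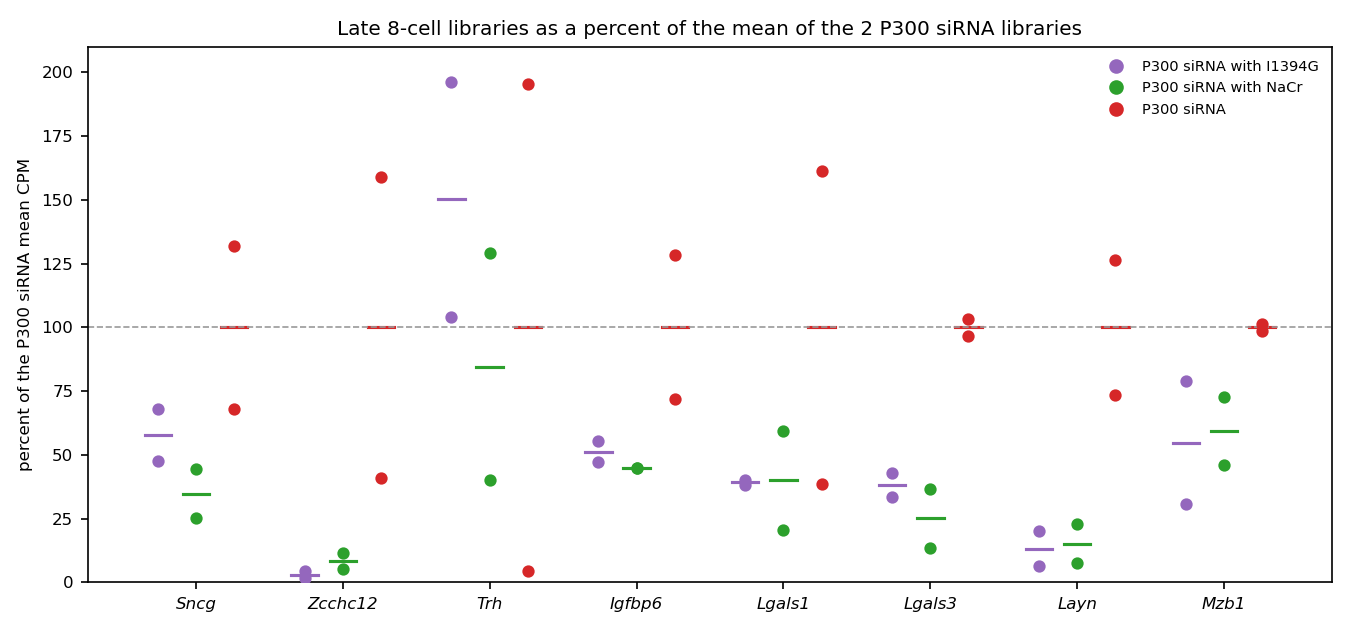
Late 8-cell CPM of each gene as a percent of the mean of the 2 siRNA libraries (vertical axis, linear from 0), for I1394G, NaCr and siRNA alone, with 1 point per library and a bar at the mean of 2. The dashed line marks 100%. Zcchc12 lies under 12% in all 4 rescue libraries, and the siRNA libraries of Trh lie at 195% and 4.67%.

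Scaling bears on the late 8-cell values. With the size factors of DESeq2 in place of TMM, the median of all genes moved by 0.14 on the log2 scale for siRNA against control, from a median of 0.06. Of the 16603 tested genes, 4738 averaged under 1 CPM in late 8-cell controls, among them 6 of the 8. With a bound chosen after the values were seen, 91 of these reached 10 CPM with siRNA alone, 12 with I1394G and 12 with NaCr. The 8 genes that reached it in all 3 groups were Igfbp6, Mzb1, Sncg and Trh together with Gpx3, a secreted glutathione peroxidase, Mt3, a metallothionein, and the gene models 4930509G22Rik and Gm2022.

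Across the 20 libraries the 8 genes resembled each other to different degrees. Pearson's r of log2(CPM + 0.5) was highest between Sncg and Mzb1, at 0.97, and Igfbp6 stood at 0.93 with Sncg and 0.91 with Mzb1. It was lowest between Trh and Layn, at 0.15. Of genes outside the group, those most like the mean profile of the 8 were Akr1b10, an aldo-keto reductase (0.97), Hspb1, a small heat shock protein (0.95), C1qtnf6 (0.95), Cib2, a calcium-binding protein (0.95), and Fam81a (0.95). Taken singly, Sncg and Mzb1 were most like Mt3 (0.98 and 0.96), Igfbp6 most like Hspb1 (0.97), Lgals1 most like Fgfbp3 (0.96) and Layn most like Inafm2 (0.96). Lgals3 was most like Timp2, a metalloproteinase inhibitor (0.94), Zcchc12 most like Car13, a carbonic anhydrase (0.93), and Trh most like Rab13, a small GTPase (0.87). These values share the same 20 libraries and rest largely on the late 8-cell groups that chose the genes, so they are descriptions.

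Akr1b10 had a mean of 4.94 CPM with I1394G, 3.67 CPM with NaCr, 13.4 CPM with siRNA alone and 0.0257 CPM in controls. Hspb1 had 392, 313, 632 and 52.1 CPM in the same groups, and Mt3 had 10.1, 10.2, 13.9 and 0.0552 CPM. Mt3 thus stood in the rescues near its level with siRNA alone, while Akr1b10 fell well short of it.

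Among the working partners of the 8 genes were those of ER folding. Mzb1 acts beside the chaperone encoded by Hsp90b1, and the list held 8 tested genes. Of these, edgeR called 4 higher in siRNA embryos at the 4-cell stage and 5 at the early 8-cell stage, and DESeq2 5 and 6, against 7.77% and 8.21% of all tested genes with edgeR. Neither tool called any of the 8 lower, and 0 were lower at an unadjusted p under 0.05. The median log2 difference of the list was 0.63 and 0.998, against 0 and 0.04 over all genes. Hsp90b1 averaged 137 ± 4.83 CPM with siRNA against 70.6 ± 2.18 CPM in controls at the 4-cell stage (SD, n = 2 each; 0.95 ± 0.19, edgeR adjusted p = 0.00320) and 147 ± 37.4 against 57.0 ± 7.48 CPM at the early 8-cell stage (1.37 ± 0.19, adjusted p = 0.000133). Calr, the lectin chaperone calreticulin, rose by 0.81 ± 0.23 and 1.62 ± 0.24 (adjusted p = 0.0259 and 0.000201), and Hspa5, the chaperone BiP, by 0.70 ± 0.21 and 1.31 ± 0.22 (adjusted p = 0.0361 and 0.000548). Ero1l, an oxidase of the ER, rose at both stages and Canx, calnexin, at the second. At the late 2-cell stage edgeR and DESeq2 called 0 of the 8, and 0 had an unadjusted p under 0.05.

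**Figure D4:**
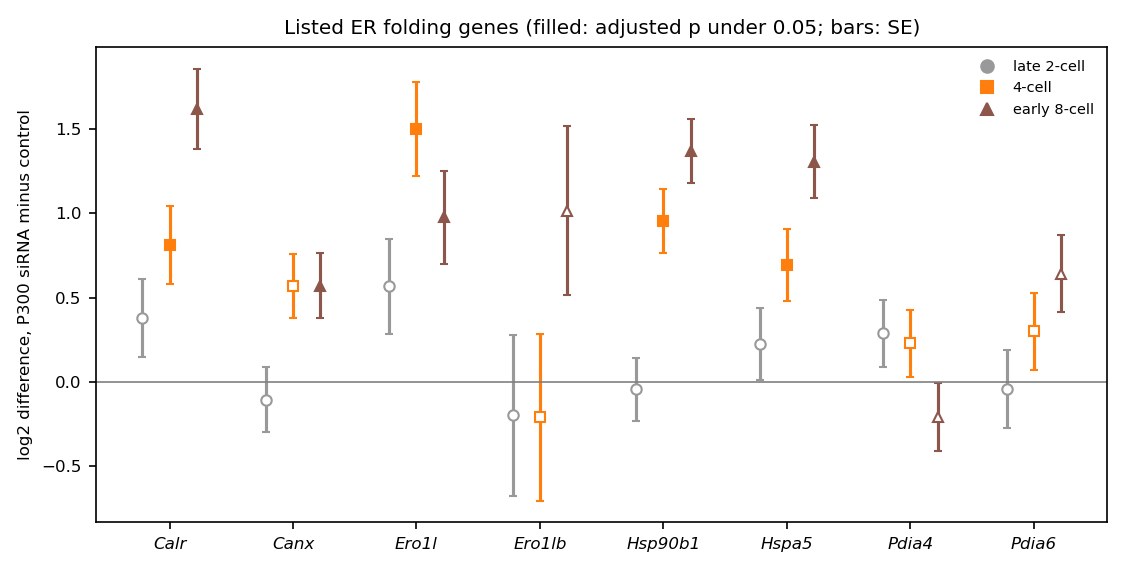
Log2 difference of P300 siRNA from control (vertical axis) for 8 listed ER folding genes (horizontal axis) at the late 2-cell, 4-cell and early 8-cell stages, with bars of 1 SE. Filled symbols passed at an adjusted p under 0.05, and Calr, Ero1l, Hsp90b1 and Hspa5 are filled at both later stages.

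The families of the other genes did not move as one. Among 6 tested genes of the galectin family, Lgals8 fell at the 4-cell stage to 86.4 ± 28.9 CPM with siRNA, against 285 ± 80.1 CPM in controls (SD, n = 2 each; -1.73 ± 0.27, edgeR adjusted p = 0.000555), and at the early 8-cell stage (-2.19 ± 0.27, adjusted p = 5.4e-05). Lgals9 fell at both stages as well (-3.58 ± 0.65 and -4.23 ± 0.68), and Lgals7 was higher at the 4-cell stage with no control counts. Lgals8 and Lgals9 encode galectins with paired sugar-binding domains. Among 13 genes of the insulin-like growth factor axis, Igfbp3, the main carrier of these factors in serum, rose to 16.8 ± 3.79 CPM with siRNA, against 2.71 ± 0.767 CPM in controls, at the 4-cell stage (2.61 ± 0.55, adjusted p = 0.00476). It was higher at the early 8-cell stage as well (2.18 ± 0.55, adjusted p = 0.0109). Irs1, the receptor substrate, was higher at the 4-cell stage, and Igf2r, which clears IGF2, was lower at the early 8-cell stage (-1.17 ± 0.33, adjusted p = 0.0209).

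Among 12 hyaluronan and layilin-related genes, Rdx, the membrane linker radixin, rose at both stages (0.97 ± 0.23 and 1.27 ± 0.23, adjusted p = 0.00924 and 0.00107) and the hyaluronidase gene Hyal1 at the 4-cell stage (3.11 ± 0.93, adjusted p = 0.0312). Among 5 tested relatives of Zcchc12, Pnma5 rose at both (1.73 ± 0.30 and 2.55 ± 0.31, adjusted p = 0.00129 and 4.9e-05). Among 6 tested genes of TRH processing, with no receptor among them, Cpe, which trims prohormones, was lower at the 4-cell stage (-2.45 ± 0.66, adjusted p = 0.0196). At the early 8-cell stage edgeR and DESeq2 called 0 of the 6, and 2 had an unadjusted p under 0.05.

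On the chromosomes, the 8 genes lie apart, Sncg and Lgals3 both on chromosome 14, Igfbp6 and Lgals1 both on chromosome 15, and Trh, Layn, Mzb1 and Zcchc12 on chromosomes 6, 9, 18 and X. Of the 32 genes listed next to them, the nearest pair on each side, 31 were tested. In 15 of the 31 both late 8-cell siRNA libraries were above both controls, against 32.8% of all tested genes, and their median log2 difference was 0.89, against 0.06 over all genes. The 15 were spread unevenly. All 4 neighbours of Zcchc12 were above control (Dock11 2.03, Il13ra1 1.74, Lonrf3 0.57 and Gm6268 4.16), 3 of 4 for Trh (Rbsn 2.04, Prickle2 2.16 and Adamts9 2.24), and all 3 tested ones for Layn (Ppp2r1b 0.53, Sik2 1.94 and Btg4 1.60). No neighbour of Igfbp6 or Lgals1 was. Next to Sncg, Fam25c (2.39) and Mmrn2 (3.90), and next to Mzb1, Prob1 (4.41) were higher, while Bmpr1a (-0.03) and Slc23a1 (-0.69) were not. Raised genes thus had raised neighbours with siRNA alone at some of these loci and not at others. Gaps ran from 80 bases for Prob1 to 528048 for Adamts9. In both rescues Fam25c, Mmrn2, Gm6268, Rbsn and Prob1 stayed at least 1.06 log2 above control. Il13ra1, Lonrf3, Adamts9, Ppp2r1b and Sik2 were below it in both, Sik2 only slightly (-0.096 with I1394G and -0.005 with NaCr). The rest of the 15 lay between. Prob1, Prickle2 and Adamts9 averaged 1.84, 1.28 and 0.939 CPM with siRNA alone, where 3 counts in replicate 1 come to 0.796 CPM.

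**Figure D5:**
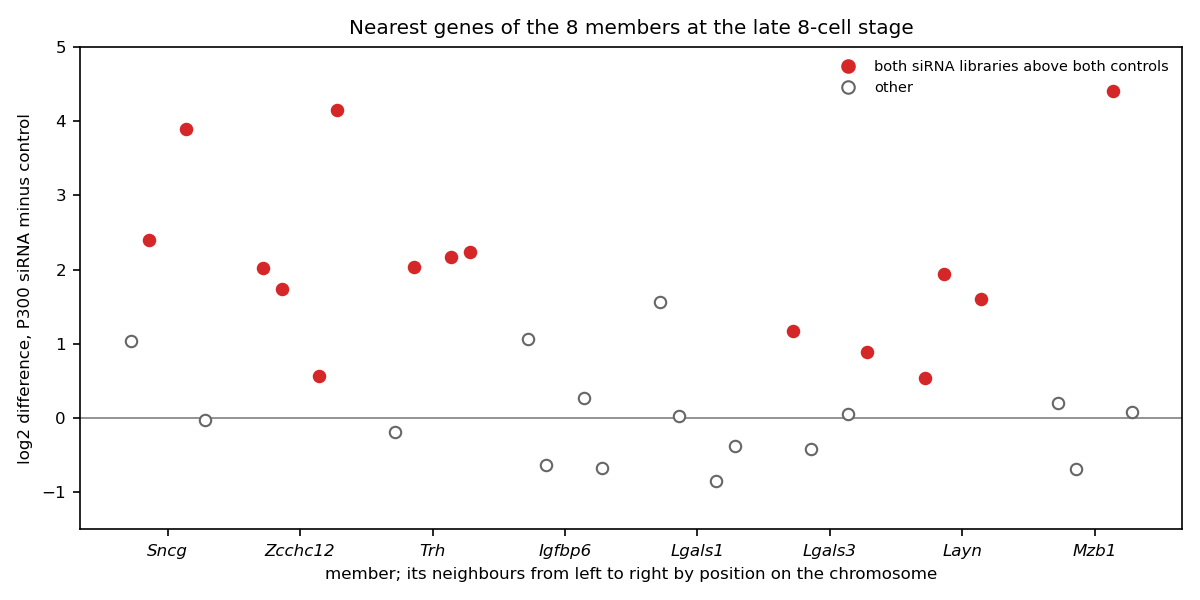
Log2 difference of P300 siRNA from control at the late 8-cell stage (vertical axis) for the tested neighbours of each of the 8 genes (horizontal axis), ordered within a gene by position on the chromosome. Filled points had both siRNA libraries above both controls, as Prob1 at 4.41 beside Mzb1 does, and open points did not, as in all 4 neighbours of Igfbp6 and of Lgals1.

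Markers of cells in which the 8 genes are best known were followed beside them at the late 8-cell stage. The 8 neuronal markers summed to between 15.1 and 18.7 CPM with I1394G, 17.5 and 17.9 CPM with NaCr, 37.7 and 54.8 CPM with siRNA alone and 5.96 and 6.52 CPM in controls. With siRNA alone 7 of the 8 had counts, all but Gap43. The 7 neuroendocrine markers summed to between 4.05 and 6.48 CPM with I1394G, 3.73 and 5.02 CPM with NaCr, 14.9 and 18.0 CPM with siRNA alone and 6.62 and 7.24 CPM in controls, with Scg2 at 0 in all 4 groups. The 7 listed markers of B cells and plasma cells, in which Mzb1 is known, summed to between 14.8 and 22.7 CPM with I1394G, 18.5 and 19.2 CPM with NaCr, 17.3 and 31.0 CPM with siRNA alone and 20.4 and 20.9 CPM in controls, with Jchain at 0 in the siRNA libraries. The 8 fibroblast markers, cells rich in Lgals1, summed to between 2.29 and 2.45 CPM with I1394G, 1.24 and 2.71 CPM with NaCr, 3.59 and 4.78 CPM with siRNA alone and 3.95 and 5.90 CPM in controls, with Col1a2, Col3a1, Dcn and Lum at 0 in the siRNA libraries. The neuronal sum was thus above control in all 3 groups with siRNA, the neuroendocrine sum with siRNA alone, and the plasma cell and fibroblast sums overlapped with control under siRNA alone. With siRNA alone Tubb3 and Snap25 led the neuronal sum (19.9 and 15.5 CPM on average, against 2.27 and 1.05 CPM in controls). Syt1 was not raised (2.07 against 2.21 CPM). Scg3 and Scg5 led the neuroendocrine rise (4.35 and 4.63 against 0.472 and 0.0789 CPM), and Chga was lower (5.01 against 5.99 CPM). Late 2-cell controls had higher sums, at 164 to 175 CPM for the neuronal and 77.8 to 82.8 CPM for the neuroendocrine markers.

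The 7 macrophage and blood markers summed to between 33.9 and 48.6 CPM with I1394G, 31.2 and 36.2 CPM with NaCr, 45.1 and 49.1 CPM with siRNA alone and 7.61 and 7.96 CPM in controls, with Adgre1 and both globin genes at 0 in every one of these groups. Cd68 alone made up most of each sum, at 41.3, 33.2, 46.2 and 7.14 CPM on average, and Csf1r, Lyz2 and Ptprc were at 0.684 CPM or less. The 10 cumulus and granulosa cell markers summed to between 5.503 and 6.53 CPM with I1394G, 4.23 and 7.20 CPM with NaCr, 9.82 and 16.8 CPM with siRNA alone and 1.39 and 1.43 CPM in controls, with Fshr and Cyp19a1 at 0 with siRNA alone. Tnfaip6 led this sum with siRNA alone (8.15 CPM on average), and Cyp11a1 led it with I1394G and NaCr (3.24 and 2.99 CPM). The 4 oviduct markers summed to between 7.25 and 9.24 CPM with I1394G, 5.35 and 9.64 CPM with NaCr, 16.9 and 21.5 CPM with siRNA alone and 3.44 and 5.96 CPM in controls. The 6 markers of the preimplantation embryo itself summed to between 7684 and 7999 CPM with I1394G, 9280 and 9961 CPM with NaCr, 3384 and 3977 CPM with siRNA alone and 7895 and 8408 CPM in controls, Tdgf1 being at 0 throughout. Dppa3 made up most of this sum, at 7039, 8671, 3305 and 6999 CPM on average in the same order of groups. The sum was thus near or above control in the rescues and lower with siRNA alone. Pou5f1, Sall4, Tfap2c and Zfp42 each averaged below control in both rescues and with siRNA alone. The 6 epiblast markers summed to between 35.8 and 36.3 CPM with I1394G, 30.6 and 47.6 CPM with NaCr, 15.4 and 27.6 CPM with siRNA alone and 73.3 and 79.3 CPM in controls, led by Dnmt3b. The 8 trophoblast markers summed to between 67.9 and 74.4 CPM with I1394G, 53.4 and 97.9 CPM with NaCr, 51.5 and 64.4 CPM with siRNA alone and 42.7 and 53.5 CPM in controls, led by Hand1. The part of any of these marker levels in the values of the 8 genes was not tested.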

How the data were processed

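Count and FPKM tables of 20 Smart-seq2 libraries were used as deposited by the authors. HISAT2 2.2.1 and the mm9 build stand in the submitters' processing notes, beside Cufflinks 2.2, cutadapt 4.1 and bcl2fastq 2.20.0.422, and the settings, annotation and strand of counting are not given in the sources used here. The deposited FPKM values served only as an alternative. The 8 genes and all gene lists were chosen with earlier results of these data known. Counts were fitted with edgeR 4.0.16 (R 4.3.3), with 1 coefficient for each of 10 groups, TMM scaling, filterByExpr (16603 of 25208 genes kept) and the quasi-likelihood F test. P-values were adjusted over all tested genes by the Benjamini-Hochberg method, with calls under 0.05. Errors marked ± beside log2 differences are standard errors, and groups without counts are given as bounds set at 3 counts. Named besides the 8 genes were Ep300, the 5 genes most like their mean profile, the 1 most like each, the 2 nearest listed genes on each side, and up to 3 called genes of each list. The ER folding list went beyond this limit, and all its genes called by edgeR are named. Alternatives were DESeq2 1.42.0, its size factors within edgeR, no filter, limma 3.58.1 on log2(FPKM + 1) or log2(FPKM + 0.1), a replicate block, fits on only the libraries compared, and leaving out each library. Dropping the mismatched FPKM column was chosen after seeing the data. Pairs of groups showed correlations of replicate deviations from -0.0782 to 0.423, so replicate numbers were not taken as pairs. The fits were tested on simulated data.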

Additional observations from a re-analysis of the deposited data

Results flagged for a closer look

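The effect of P300 siRNA on Igfbp6 differed between the late 2-cell and the 4-cell stage by 4.08 on the log2 scale (± 0.88 SE, edgeR adjusted p = 0.0168). It was 3.27 ± 0.63 at the 4-cell stage, with both siRNA libraries above both controls, and -0.81 ± 0.62 at the late 2-cell stage, with both below. The difference itself was tested as an interaction. Over the alternatives it stayed between 2.27 and 4.84, with adjusted p from 8.4e-05 to 0.133.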

How the results depend on the processing

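Of the counts of genes called among the 8, 260 recomputed values stayed within 1.5 times the reported count and 32 did not, and of the tests of single genes 324 kept direction and call, 52 lost the call, 4 gained it and 7 reversed. Of the untested late 8-cell differences, 524 recomputed values moved by less than 1 SD and 99 by more. The cause of these shifts was not tested. Fitting only the libraries compared gave 1 gene called higher at the late 2-cell stage, 0 at the 4-cell stage, 1 at the early 8-cell stage, 1 for the mean of stages, 0 for the stage difference of the siRNA effect and 1 for the change in siRNA embryos between the late 2-cell and 4-cell stages. The stage difference gave 2 with DESeq2, 2 without a filter, 2 with limma on log2(FPKM + 0.1) without the mismatched column and 0 with limma on log2(FPKM + 1). At the early 8-cell stage limma called 0 with either pseudocount and 1 with either once that column was dropped. Without a filter 1 gene was called lower at the 4-cell stage and 1 for the stage difference. Leaving out each library in turn gave 1 to 3 genes higher at the 4-cell stage, 0 to 2 at the early 8-cell stage, 0 to 4 for the mean, 0 to 2 for the stage difference and 1 to 2 for the change in siRNA embryos. It gave 1 to 4 genes lower between the stages in controls and 1 to 3 in siRNA embryos, and 0 to 1 lower at the 4-cell stage and for the stage difference. The early 8-cell difference of Lgals3 was -0.45 and became 0.68 or 0.46 with limma on log2(FPKM + 0.1), with all columns or without the mismatched one, and 0.55 or 0.38 on log2(FPKM + 1). It ranged from -0.92 to 0.23 without each library. The 4-cell difference of Mzb1 ranged from -2.17 to 6.77, and the late 2-cell difference of Trh from -0.76 to 0.0014. The replicate numbers are shared between groups but did not pair the libraries, and with a replicate block 3 genes were called higher at the 4-cell and 2 at the early 8-cell stage, as without it. Depth limits the smallest values, since 3 counts in the shallowest late 8-cell library come to 0.796 CPM. Genes of the lists and neighbours were not refitted without single libraries.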
